A study of Sus scrofa with 6 samples.

Results

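NQO1, AKR1C1, TXNRD1, PRDX1, GCLC and GCLM encode redox and detoxification enzymes that the transcription factor NRF2 is known to switch on in human cells. They were the 6 rows, of 10915 genes with values, whose symbol in the deposited table equalled 1 of these names. The genes were chosen by their FPKM difference between the exosome and control libraries, which was already known. Those differences are therefore given as a description with no test, and nothing is supported with them. All 6 passed the filter on low values, a mean of at least 1 FPKM (sequenced fragments scaled by transcript length and by library size), which kept 10846 genes.

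The cells were a primary culture of porcine endometrial epithelial cells at passage 3, grown from slaughterhouse uteri. In the exosome group (3 libraries) cells were exposed for 48 h to 10 µg per well of vesicles that Exo-Quick-TC had precipitated from the sperm-rich fraction of boar seminal fluid. The control group (3 libraries) had no exosomes, and no label says whether it received the precipitant or the vehicle. No genotype, strain, age or drug is given for either group, and precipitation can bring down material other than vesicles. For each exosome library the labels give a seminal fluid n of 3, which does not tell whether a library had its own fluid. The labels do not tell whether replicates stand for separate uteri, seminal fluids, wells or extractions, so every p-value measures a spread that could be technical only. In such bulk RNA, fewer cells of a type and less RNA per cell cannot be told apart.

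NRF2, encoded by NFE2L2, is held in the cytoplasm by KEAP1, which hands it to the CUL3 ubiquitin ligase for degradation. Electrophiles and oxidants modify KEAP1, so that NRF2 escapes, enters the nucleus, pairs with a small MAF protein and binds antioxidant response elements, from which BACH1 can displace it. Because this control acts on the protein, the NFE2L2 transcript is not a measure of NRF2 activity. The target enzymes make glutathione, keep thioredoxin reduced, and reduce quinones and carbonyls.

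FPKM sums ran from 690258 to 732922 per library, and the depth in reads is unknown because no counts were given. Epithelial markers were present, 11 of 14 with values and a summed level of 13663 to 14093 FPKM in the controls and 11704 to 12884 in the exosome libraries. The lower sum was not shared by all of them. KRT8, CLDN3, CLDN4, MUC1, ELF3 and CD24 were below every control in every exosome library. EPCAM, KRT18, KRT19, ESRP1 and GRHL2 overlapped between the groups. Stromal markers were also present, 5 of 10, at 2788 to 3042 FPKM in the controls and 2274 to 2494 in the exosome libraries, most of it CD90. Leukocyte markers (3 of 10) and endothelial markers (1 of 6) summed to at most 12.5 and 1.96 FPKM in any library, and 0 of 8 sperm and seminal tract markers had values. The part of these markers in the results below was not tested.

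Exosome replicate 2 was nearer to each control than to either of the other exosome libraries. Over all genes tested, the SD of its log2 differences was 0.201 to 0.231 against the controls, and 0.244 and 0.251 against exosome replicates 1 and 3. The same SD was 0.222 between exosome replicates 1 and 3, 0.225 to 0.26 between them and the controls, and 0.171 to 0.206 among the controls. Without it, 297 genes passed an adjusted p of 0.05 in limma's moderated test, 93 higher and 204 lower in the exosome libraries. With it, 0 passed, and 1362 had an unadjusted p under 0.05. Leaving out any other library gave 0 genes, except for 1 without control replicate 3. Exosome replicate 2 is the exosome library that these same values place nearest the controls, so leaving it out itself favours separation of the groups. P-values and calls without exosome replicate 2, here and below, are therefore a description and support nothing. Log2 differences are given with and without exosome replicate 2 for the 6 genes. The same holds for most genes of the lists below where leaving it out changed the call or the sign or moved a printed difference by more than 1.5 times. For GSR and SRXN1 the difference is given without that library only, and for SLC1A1 not at all.

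NQO1 (ENSSSCG00000002754) encodes a quinone reductase that turns quinones into hydroquinones without a radical intermediate. Its level was 91.5, 85.9 and 70.9 FPKM in control replicates 1, 2 and 3, and 142, 57.3 and 172 FPKM in exosome replicates 1, 2 and 3. Exosome replicates 1 and 3 lay above every control and exosome replicate 2 below every control, so the groups overlapped. Against the control mean the exosome libraries stood at 1.71-fold, 0.693-fold and 2.07-fold, the widest split of the 6 genes. The group means were 82.8 ± 10.7 and 124 ± 59.3 FPKM (SD, n = 3 per group). Here and below, the log2 difference between groups is that of their means of log2(FPKM + 1), not the log2 ratio of the FPKM means. Its SE is the moderated one from limma. For NQO1 the log2 difference was 0.44 with an SE of 0.36. Without exosome replicate 2 the log2 difference was 0.91 with an SE of 0.12. Over the fits that leave out 1 library it ran from 0.13 to 0.91, lowest without exosome replicate 3.

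AKR1C1 (ENSSSCG00000011147) encodes an aldo-keto reductase; the human enzyme reduces aldehydes and ketones and inactivates progesterone. Its level was 295, 242 and 234 FPKM in the controls and 445, 226 and 488 FPKM in exosome replicates 1, 2 and 3. Again exosome replicates 1 and 3 were above every control and exosome replicate 2 was below every control. The group means were 257 ± 32.9 and 386 ± 141 FPKM. The log2 difference was 0.52 (SE 0.26) with exosome replicate 2 and 0.86 (SE 0.10) without it. The value is uncertain between related genes. RefSeq's Sscrofa11.1 annotation gives the symbol AKR1C1 to a pair of genes on chromosome 10, at 65580297 to 65594998 and at 65650223 to 65679878, with AKR1CL1 and AKR1E2 beside them, and the table's identifier was not paired with a symbol in the reference table.

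TXNRD1 (ENSSSCG00000000843) encodes the cytosolic thioredoxin reductase, a selenoprotein that spends NADPH to keep thioredoxin reduced. Its level was 151, 135 and 121 FPKM in the controls and 235, 145 and 236 FPKM in exosome replicates 1, 2 and 3. Here exosome replicate 2 was inside the control range while the other two lay well above it. The group means were 135.5 ± 14.9 and 205 ± 52.1 FPKM. The log2 difference was 0.56 (SE 0.18), and 0.80 (SE 0.09) without exosome replicate 2.

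PRDX1 (ENSSSCG00000003914) encodes a peroxiredoxin, an abundant peroxidase that is recycled by thioredoxin. Its level was 473, 474 and 439.8 FPKM in the controls and 549, 489 and 569 FPKM in exosome replicates 1, 2 and 3. All 3 exosome libraries lay above all 3 controls, exosome replicate 2 by the least. The group means were 462 ± 19.4 and 536 ± 42.0 FPKM. The log2 difference was 0.21 (SE 0.07), and 0.28 (SE 0.05) without exosome replicate 2.

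GCLC (ENSSSCG00000001488) and GCLM (ENSSSCG00000006891) encode the catalytic and the modifier subunit of glutamate-cysteine ligase, which carries out the rate-limiting step of glutathione synthesis. GCLC was at 202, 198 and 178 FPKM in the controls and at 260.5, 167 and 288 FPKM in exosome replicates 1, 2 and 3. Its exosome replicate 2 was below every control, as for NQO1 and AKR1C1, and its group means were 193 ± 12.8 and 238 ± 63.6 FPKM. GCLM was at 22.9, 22.5 and 20.9 FPKM in the controls and at 25.1, 23.7 and 27.0 FPKM in exosome replicates 1, 2 and 3, with no overlap of the groups. Its group means were 22.1 ± 1.06 and 25.3 ± 1.66 FPKM. The log2 difference was 0.27 (SE 0.18) for GCLC and 0.18 (SE 0.07) for GCLM. Without exosome replicate 2 it was 0.51 (SE 0.07) for GCLC and 0.23 (SE 0.06) for GCLM. The order of the 2 subunits rested on the libraries used, as both were at 0.19 without exosome replicate 1, and GCLC was at 0.11 and GCLM at 0.14 without exosome replicate 3.

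**Figure D1:**
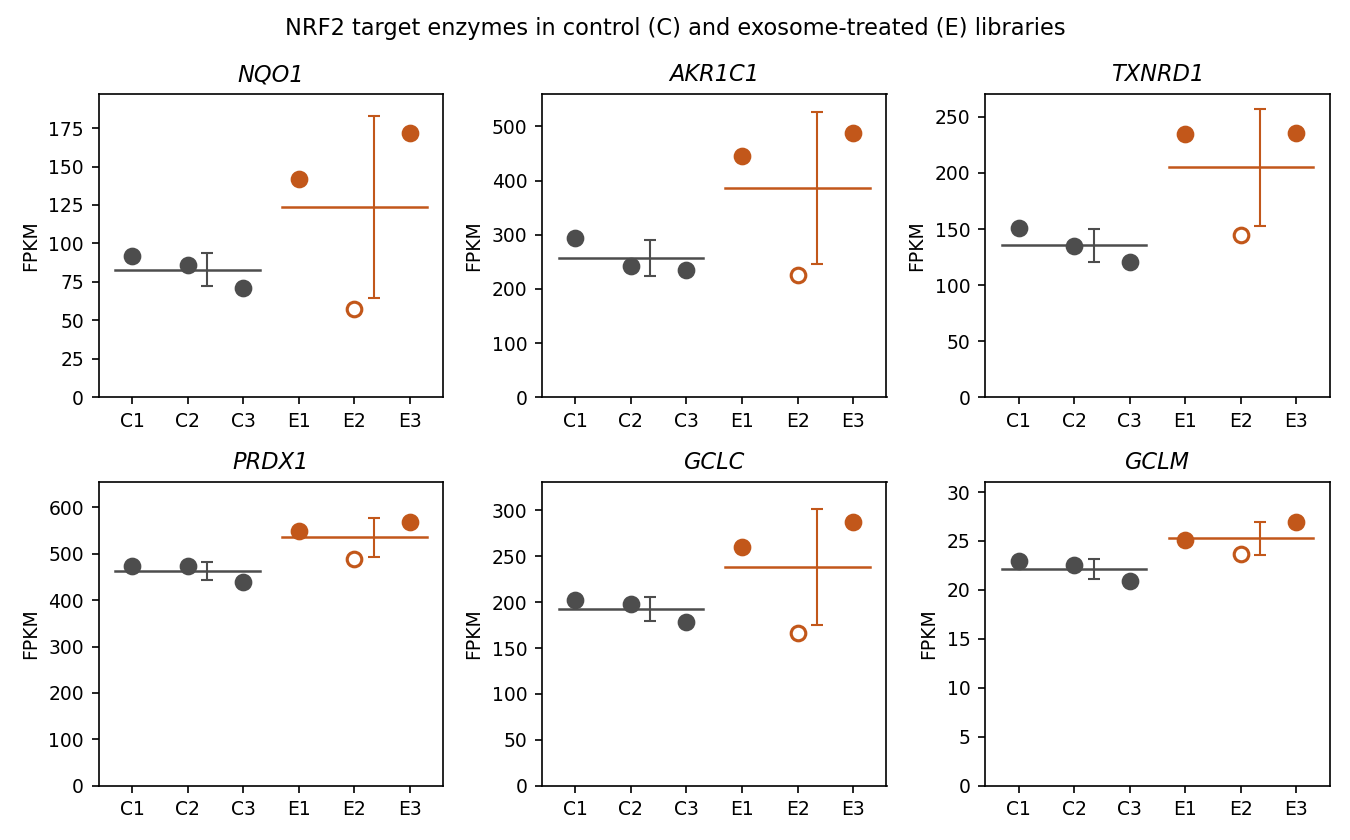
FPKM of the 6 enzyme genes (y axis, from 0) in control replicates 1 to 3 (C1 to C3, grey) and exosome replicates 1 to 3 (E1 to E3, orange; exosome replicate 2 open). Horizontal lines are group means and error bars 1 SD (n = 3). E1 and E3 lie above every control in all 6 panels, and E2 lies below every control for NQO1, AKR1C1 and GCLC.

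The other 5 genes lie apart from each other on the RefSeq map of Sscrofa11.1. NQO1 is on chromosome 6 at 17292962 to 17302593, PRDX1 on chromosome 6 at 165847390 to 165859918, and TXNRD1 on chromosome 5 at 80170334 to 80213889. GCLC is on chromosome 7 at 27209565 to 27253535 and GCLM on chromosome 4 at 123371198 to 123390130. These are whole-gene spans found by symbol.

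By mean FPKM, which is a level per transcript length, the genes ran from PRDX1 (499) through AKR1C1 (321.5), GCLC (216), TXNRD1 (170.3) and NQO1 (103) to GCLM (23.7). That order held in each of the 6 libraries, but the ranges over libraries of each of the first 4 overlapped the next one down. The range of NQO1, 57.3 to 172 FPKM, did not overlap that of GCLM, 20.9 to 27.0 FPKM. Among the 10846 genes tested PRDX1 was 208th by level and GCLM 4025th, and the other 4 ranked between 321 and 1034. The spread within the exosome group was the wider one for every gene, with a coefficient of variation of 48.0% for NQO1, 36.4% for AKR1C1, 26.7% for GCLC and 25.4% for TXNRD1. It was 7.84% for PRDX1 and 6.55% for GCLM, while the controls ran from 4.19% to 12.9%.

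The 6 genes had the same order of libraries within the exosome group, highest in exosome replicate 3 and lowest in exosome replicate 2, where 33.0% and 37.7% of all genes tested had their highest and lowest value. Among the controls, which had no exosomes, all 6 were lowest in control replicate 3 (37.6% of all genes) and 5 were highest in control replicate 1 (36.5% of all genes), PRDX1 being at about the same level in control replicates 1 and 2. Relative to the control mean, the median of the 6 genes on the log2 scale was 0.11, 0.03 and -0.12 in control replicates 1, 2 and 3. It was 0.61, -0.05 and 0.69 in exosome replicates 1, 2 and 3, so exosome replicate 2 lay inside the control range on this measure and the other two far above it. The median of all genes tested stayed within 0.01 of 0 in every library. TAGLN, picked with its values known, was the 1 of 5 smooth muscle markers with values, and other cells also express it. It split the libraries the opposite way, at 78.5 and 92.5 FPKM in exosome replicates 1 and 3. TAGLN was at 140.1 FPKM in exosome replicate 2 and 127 to 141 in the controls. CD24, an epithelial marker chosen likewise, was at 3198 and 3107 FPKM in exosome replicates 1 and 3. It was at 3843 FPKM in exosome replicate 2 and 3928 to 4080 in the controls, a split that EPCAM did not have. The part of these markers in the result was not tested.

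**Figure D2:**
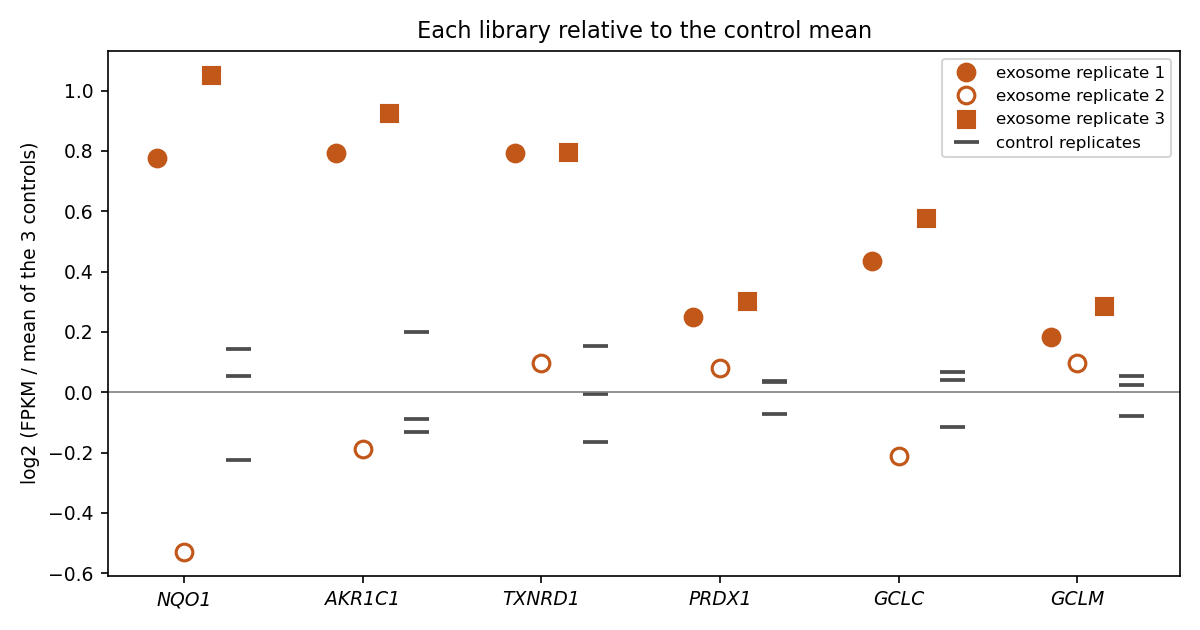
Each library relative to the mean of the 3 controls, as log2 of the FPKM ratio (y axis), for the 6 genes (x axis). Filled circles and squares are exosome replicates 1 and 3, open circles exosome replicate 2, grey dashes the controls; the filled symbols are above the dashes for all 6 genes, and the open circle is below them for NQO1, AKR1C1 and GCLC.

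The groups did not overlap in 2 of the 6, GCLM and PRDX1, where 8.29% of all genes had all 3 exosome libraries above all 3 controls. Exosome replicates 1 and 3 were above every control in 6 of 6, against 19.9% of all genes. Exosome replicate 2 was at the same time below every control in 3 of 6, against 4.57% of all genes. These counts come from the contrast by which the genes were chosen, so nothing is read from them.

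NFE2L2 (ENSSSCG00000015987), the transcript of NRF2 itself, was at a lower level in every exosome library. It was at 107, 115 and 114 FPKM in the controls and at 93.6, 94.9 and 95.6 FPKM in exosome replicates 1, 2 and 3. Exosome replicate 2 did not stand apart here, and the groups did not overlap, where 10.4% of all genes had all 3 exosome libraries below all 3 controls. The log2 difference was -0.24 (SE 0.05) with and without exosome replicate 2. It did not pass limma's test over all genes (adjusted p = 0.189 with all libraries), and its adjusted p over the alternatives ran from 0.0580 without exosome replicate 2 to 0.632. In exosome replicates 1 and 3 the NFE2L2 transcript thus lay below the controls and the 6 chosen enzyme genes above them, while the other known targets, given below, lay on both sides.

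NFE2L3, a related factor that binds the same elements, split the libraries as NQO1, AKR1C1 and GCLC did, at a low level. It was at 4.06, 3.80 and 4.13 FPKM in the controls and at 6.28, 3.21 and 6.83 FPKM in exosome replicates 1, 2 and 3. Its log2 difference was 0.32 with all libraries (adjusted p = 0.573 in limma) and 0.60 without exosome replicate 2 (adjusted p = 0.0217; up to 0.877 over the alternatives), where it was the 1 gene of 10 on the list of NRF2 and its regulators to pass. Without exosome replicate 2, 0.857% of all genes were called as higher. The small MAF gene MAFF was at 42.9, 44.3 and 43.6 FPKM in the controls and at 30.9, 43.4 and 36.4 FPKM in exosome replicates 1, 2 and 3, with exosome replicate 2 inside the control range and the other two below it. Its log2 difference was -0.25 with all libraries and -0.37 without exosome replicate 2, and it did not pass in either (adjusted p = 0.402 and 0.0553 in limma; up to 0.755 over the alternatives). BACH1, the repressor at these elements, and NFE2L1, another relative, had log2 differences of -0.13 and -0.14 and did not pass (adjusted p = 0.528 and 0.437 in limma). Across the list, 0 of 10 passed with all libraries, where 0% of all genes were called in either direction, 3 had a positive difference and 7 a negative one, and the median was -0.09 (-0.13 without exosome replicate 2) against -0.002 for all genes tested. KEAP1 had no row under that symbol and was not analysed here.

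**Figure D3:**
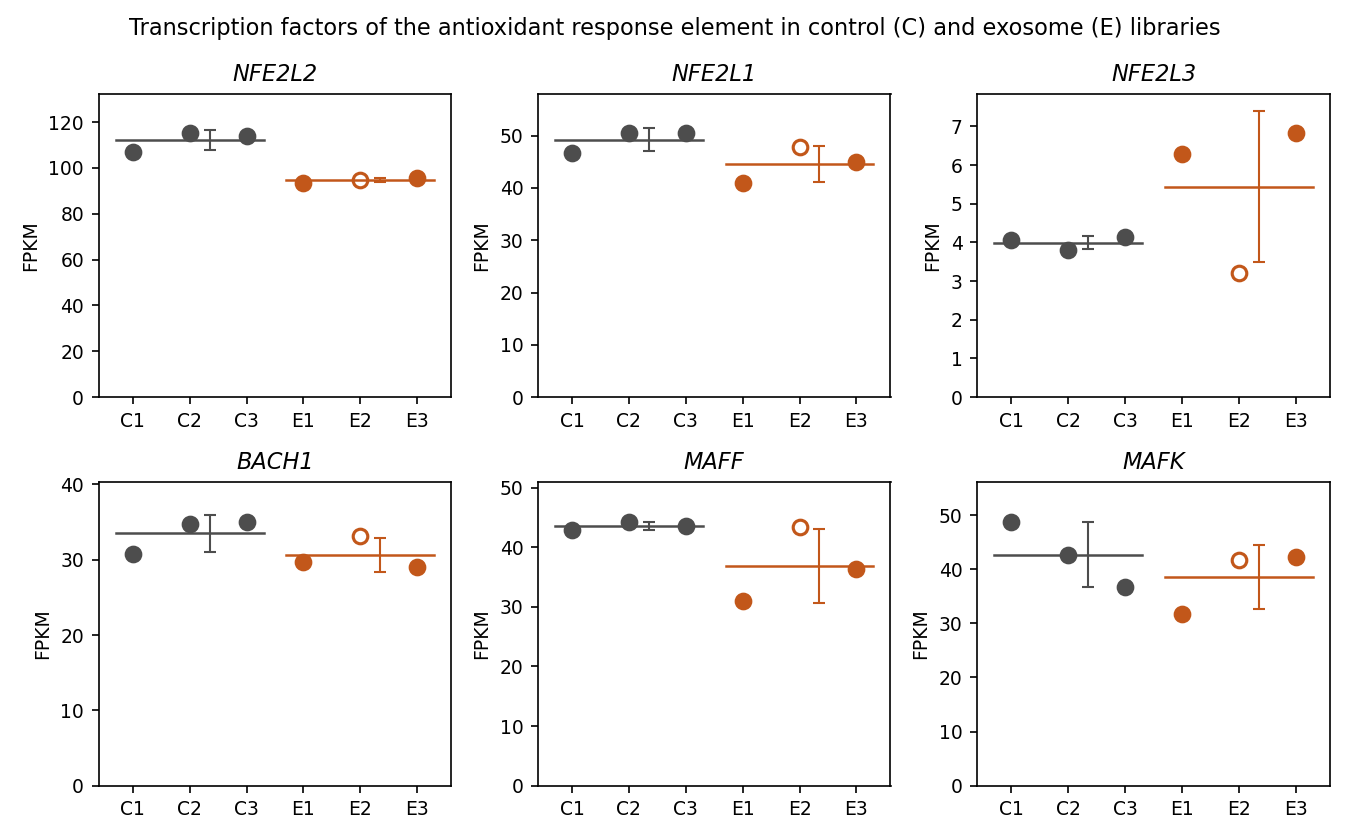
FPKM (y axis, from 0) of NFE2L2, its relatives NFE2L1 and NFE2L3, the repressor BACH1 and the small MAF genes MAFF and MAFK in control (C1 to C3, grey) and exosome libraries (E1 to E3, orange; exosome replicate 2 open). Lines are group means and bars 1 SD (n = 3); NFE2L2 sits between 93.6 and 95.6 FPKM in the exosome libraries, below its 3 controls, and NFE2L3 is above its controls in E1 and E3 and below them in E2.

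Other known NRF2 targets had differences of both signs. Of 53 symbols on that list 32 had values, HMOX1 and SLC7A11 not among them. With all libraries 0 of the 32 passed in limma. An unadjusted p under 0.05 was reached by 2 higher and 5 lower genes, where 5.06% of all genes were higher and 7.5% lower. The median log2 difference was -0.01, with 15 positive and 17 negative. Without exosome replicate 2, 4 passed as higher (ABCC2, GSTA4, EPHX1 and GSR) and 2 as lower (IDH1 and ABHD4), where 0.857% and 1.88% of all genes were called, and the median was 0.01.

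ABCC2, an exporter of glutathione and glucuronide conjugates, was at 31.1, 31.2 and 33.0 FPKM in the controls and at 47.3, 39.7 and 43.2 FPKM in exosome replicates 1, 2 and 3, with all 3 exosome libraries above the controls. Its log2 difference was 0.43 (SE 0.07; adjusted p = 0.155 in limma), and 0.50 without exosome replicate 2 (adjusted p = 0.0147). GSTA4, a glutathione transferase of lipid peroxidation products, was at 19.0, 18.5 and 16.7 FPKM in the controls and at 26.3, 20.2 and 26.4 FPKM in exosome replicates 1, 2 and 3. Its groups did not overlap either, although exosome replicate 2 was much nearer the controls (log2 difference 0.40, adjusted p = 0.265 in limma; 0.52 and 0.0195 without that library). Over the alternatives the adjusted p of these 2 genes reached 0.578 and 0.632.

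Further targets, chosen after their values were seen, divided the libraries as NQO1 did. GSR, the reductase that regenerates glutathione, was at 102, 103 and 90.4 FPKM in the controls and at 126, 87.4 and 129.9 FPKM in exosome replicates 1, 2 and 3. EPHX1, an epoxide hydrolase, was at 37.8, 36.8 and 32.3 FPKM in the controls and at 48.9, 28.8 and 51.4 FPKM in the exosome libraries. SRXN1, which repairs overoxidised peroxiredoxins, was at 108, 102 and 91.7 FPKM in the controls and at 127, 88.8 and 136 FPKM in the exosome libraries. In each of them exosome replicates 1 and 3 lay above every control and exosome replicate 2 below every control. Of the 32 targets 11 had exosome replicates 1 and 3 above every control, where 19.9% of all genes did. Of the same 32, 7 had exosome replicate 2 below every control as well (SRXN1, TKT, ABCC3, GSR, EPHX1, CES1 and ABCB6), where 4.57% of all genes did. In 6 of the 32 (PGD, ME1, AKR1B1, ABHD4, IDH1 and FECH) all 3 exosome libraries lay below all 3 controls, where 10.4% of all genes did. These patterns were defined after the 6 genes had been seen and were not tested. Without exosome replicate 2, GSR and EPHX1 passed in limma with log2 differences of 0.37 and 0.48 (adjusted p = 0.0407 and 0.0304; up to 0.896 and 0.928 over the alternatives), and SRXN1 did not (0.39, adjusted p = 0.0515; up to 0.883). With all libraries GSR, EPHX1 and SRXN1 did not pass, and EPHX1 had a log2 difference of 0.23 (SE 0.20; adjusted p = 0.665 in limma).

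Some targets had negative differences. IDH1, the cytosolic isocitrate dehydrogenase that makes NADPH, was at 166, 176 and 171 FPKM in the controls and at 136, 152 and 133 FPKM in exosome replicates 1, 2 and 3, with no overlap. Its log2 difference was -0.28 (SE 0.06; adjusted p = 0.206 in limma), and -0.34 without exosome replicate 2 (adjusted p = 0.0173; up to 0.632 over the alternatives). ABHD4, picked with its values known, had a log2 difference of -0.23 (SE 0.08; adjusted p = 0.330 in limma). Without exosome replicate 2 it was -0.32 (adjusted p = 0.0407; up to 0.693 over the alternatives). TXN, thioredoxin itself, listed as TRX1 and picked with its values known, was at 2696 to 2815 FPKM in the controls and 2679 to 2837 in the exosome libraries, so the substrate of TXNRD1 showed a log2 difference of -0.01 (SE 0.04), and of -0.03 without exosome replicate 2. The ferritin light chain gene FTL, chosen likewise, had a log2 difference of -0.01 (SE 0.09), and of 0.08 without that library.

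Genes around the 6 enzymes in the same reactions had list medians near that of all genes. These lists share genes with the list of NRF2 targets, such as GSR, SRXN1, TKT and IDH1, so their counts are not separate. Of 29 genes of glutathione synthesis and use, 0 passed in limma with all libraries, and 4 higher and 5 lower genes had an unadjusted p under 0.05, where 5.06% of all genes were higher and 7.5% lower. The median log2 difference was 0.01 (0.04 without exosome replicate 2). Exosome replicates 1 and 3 lay above every control in 11 of the 29, where 19.9% of all genes did. Exosome replicate 2 was below every control as well in 2 of the 29, where 4.57% of all genes did. In 4 of the 29 all 3 exosome libraries lay above all 3 controls (8.29% of all genes), and in 3 below them (10.4%). These patterns were not tested in any list. GSS, chosen after its values were seen, carries out the step after glutamate-cysteine ligase and was at 16.5 ± 0.459 and 16.1 ± 0.360 FPKM. MGST3, a membrane glutathione transferase, was at 95.5, 95.6 and 98.5 FPKM in the controls and at 73.3, 79.5 and 82.5 FPKM in the exosome libraries (log2 difference -0.30, adjusted p = 0.170 in limma; -0.31 and 0.0490 without exosome replicate 2, up to 0.632 over the alternatives). SLC1A4, an amino acid transporter, was at 5.95 ± 0.885 and 8.02 ± 0.845 FPKM, and missed the threshold (adjusted p = 0.299 in limma). Without exosome replicate 2, GSR, GGCT and GSTA4 passed as higher and SLC1A1 and MGST3 as lower, where 0.857% and 1.88% of all genes were called. GGCT, which cleaves gamma-glutamyl peptides and was picked with its values known, had a log2 difference of 0.44 with all libraries and 0.70 without exosome replicate 2 (adjusted p = 0.430 and 0.0294 in limma). It stood at 15.3 and 17.0 FPKM in exosome replicates 1 and 3 against 8.34 to 10.8 in the controls and 8.91 in exosome replicate 2.

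Of 23 genes of the thioredoxin and peroxiredoxin system tested, 0 passed in limma with all libraries or without exosome replicate 2, and the median log2 difference was -0.01 (0.001 without it). Exosome replicates 1 and 3 lay above every control in 6 of the 23 (19.9% of all genes). In 2 of the 23 exosome replicate 2 was below every control as well (4.57% of all genes). All 3 exosome libraries lay above all 3 controls in 1 of the 23 (8.29% of all genes), and below them in 2 (10.4%). TXNDC12, a thioredoxin-like protein of the endoplasmic reticulum, was at 44.1 ± 2.08 and 49.0 ± 0.533 FPKM. PRDX2, the close relative of PRDX1, had the opposite sign, at 649.5, 639 and 621 FPKM in the controls and 578, 613 and 570.1 FPKM in the exosome libraries. Its log2 difference was -0.12 (adjusted p = 0.363 in limma), beside 0.21 for PRDX1, and its groups did not overlap. NXN, a thioredoxin-fold protein, had a log2 difference of -0.12 with all libraries and -0.18 without exosome replicate 2 (adjusted p = 0.456 and 0.0734 in limma). Among 15 genes of NADPH supply 0 passed with all libraries. In 2 of the 15 exosome replicates 1 and 3 lay above and exosome replicate 2 below every control (4.57% of all genes). All 3 exosome libraries lay below all 3 controls in 4 of the 15 (PGD, ME1, IDH1 and IDH2; 10.4% of all genes), and above them in 0 (8.29%). An unadjusted p under 0.05 was reached by 3 lower genes (IDH1, IDH2 and PGD), where 7.5% of all genes were lower. IDH1 passed as lower without exosome replicate 2, where 1.88% of all genes were called as lower, and the median log2 difference was 0.01 in place of -0.02. IDH2, the mitochondrial isocitrate dehydrogenase, was at 175 ± 3.59 and 153 ± 4.81 FPKM, and PGD, of the pentose phosphate pathway, at 214 ± 4.81 and 199 ± 5.40 FPKM (adjusted p = 0.234 and 0.386 in limma).

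Of 18 other genes of carbonyl and quinone reduction 0 passed in limma with all libraries, with a median log2 difference of -0.04 (0.03 without exosome replicate 2). Exosome replicates 1 and 3 lay above every control in 5 of the 18, where 19.9% of all genes did. Exosome replicate 2 was below every control as well in 4 of the 18 (CRYZ, PTGR2, ALDH1A1 and ALDH2), where 4.57% of all genes did. In another 4 of the 18 (AKR1B1, DHRS7, CYB5R3 and CYB5R1) all 3 exosome libraries lay below all 3 controls (10.4% of all genes). They lay above all 3 controls in 1 (ALDH9A1; 8.29% of all genes). CYB5R3, a cytochrome b5 reductase, was at 88.9 ± 1.72 and 79.8 ± 1.67 FPKM, ALDH9A1, an aldehyde dehydrogenase, at 51.6 ± 0.575 and 57.1 ± 3.75 FPKM, and AKR1B1, an aldo-keto reductase like AKR1C1, at 128 ± 2.98 and 119 ± 3.71 FPKM (adjusted p = 0.284, 0.375 and 0.392 in limma). NQO2, the relative of NQO1 and picked with its values known, was at 37.3 ± 5.02 and 33.3 ± 3.01 FPKM, and did not share the split of NQO1. Of 14 genes of superoxide, peroxide and metal defence 0 passed with all libraries or without exosome replicate 2, with medians of -0.03 and -0.01. Exosome replicates 1 and 3 lay above every control in 3 of the 14 (19.9% of all genes), and exosome replicate 2 below every control as well in 2 (4.57%). All 3 exosome libraries lay below all 3 controls in 2 of the 14 (SOD3 and HMOX2; 10.4% of all genes), and above them in 0 (8.29%). SOD3, the secreted superoxide dismutase, was at 10.5, 12.1 and 10.8 FPKM in the controls and at 7.87, 5.51 and 10.3 FPKM in exosome replicates 1, 2 and 3. The log2 difference of SOD3 was -0.48 with all libraries and -0.28 without exosome replicate 2 (adjusted p = 0.346 and 0.228 in limma). HMOX2, the constitutive haem oxygenase, was at 50.3 ± 1.31 and 46.1 ± 1.62 FPKM, and PON2, a lactonase, at 4.39 ± 0.467 and 3.52 ± 0.652 FPKM (adjusted p = 0.382 and 0.418 in limma).

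NQO1 is also a target of the aryl hydrocarbon receptor, whose best known target CYP1A1 had the opposite sign. CYP1A1 was at 52.8, 80.9 and 35.4 FPKM in the controls and at 12.7, 5.59 and 10.7 FPKM in exosome replicates 1, 2 and 3. All 3 exosome libraries were below the controls, and exosome replicate 2 was the lowest of them rather than near the controls (log2 difference -2.41, adjusted p = 0.118 in limma; -2.10 and 0.0230 without that library, up to 0.341 over the alternatives). TIPARP, another target, was at 43.4 ± 4.49 and 35.8 ± 1.17 FPKM and ARNT, the receptor's partner, at 21.5 ± 1.54 and 23.0 ± 1.06 FPKM, and neither passed (adjusted p = 0.284 and 0.600). AHR, the gene of the receptor itself, was chosen after its values were seen. Its level was 6.31, 6.60 and 6.22 FPKM in the controls. In exosome replicates 1, 2 and 3 it was 7.50, 5.36 and 7.68 FPKM, which divided the libraries as NQO1 did. Its log2 difference was 0.08, and 0.22 without exosome replicate 2. Of 6 genes of this list, NFE2L2 among them, 0 passed with all libraries, with a median of -0.14. In 3 (CYP1A1, TIPARP and NFE2L2) all 3 exosome libraries lay below all 3 controls, and in 0 above them (10.4% and 8.29% of all genes). CYP1A1 alone passed without exosome replicate 2, where 1.88% of all genes were called as lower, and the median was -0.15. The ATF4 stress response, which shares some targets with NRF2, had a median log2 difference of 0.11 over 14 genes, 11 of them positive, and 0 passed. An unadjusted p under 0.05 was reached by 4 higher and 0 lower genes, where 5.06% of all genes were higher and 7.5% lower. Leaving out exosome replicate 2 gave a median of 0.08, and leaving out control replicate 2 as well gave 0.05. PPP1R15A, picked with its values known, encodes a phosphatase subunit that restores translation after stress. It passed as lower with exosome replicate 2 alone left out, at a log2 difference of -0.34 against -0.19 with all libraries (adjusted p = 0.0206 and 0.559 in limma; up to 0.878 over the alternatives). With that library left out, 1.88% of all genes were called as lower. VLDLR, STC2 and SLC3A2 had log2 differences of 0.19, 0.31 and 0.20 (adjusted p = 0.270, 0.306 and 0.347 in limma). STC2 was highest in exosome replicate 2, at 19.1 FPKM against 15.2 and 15.1 in exosome replicates 1 and 3 and 12.4 to 13.9 in the controls, and its log2 difference was 0.21 without exosome replicate 2.

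**Figure D4:**
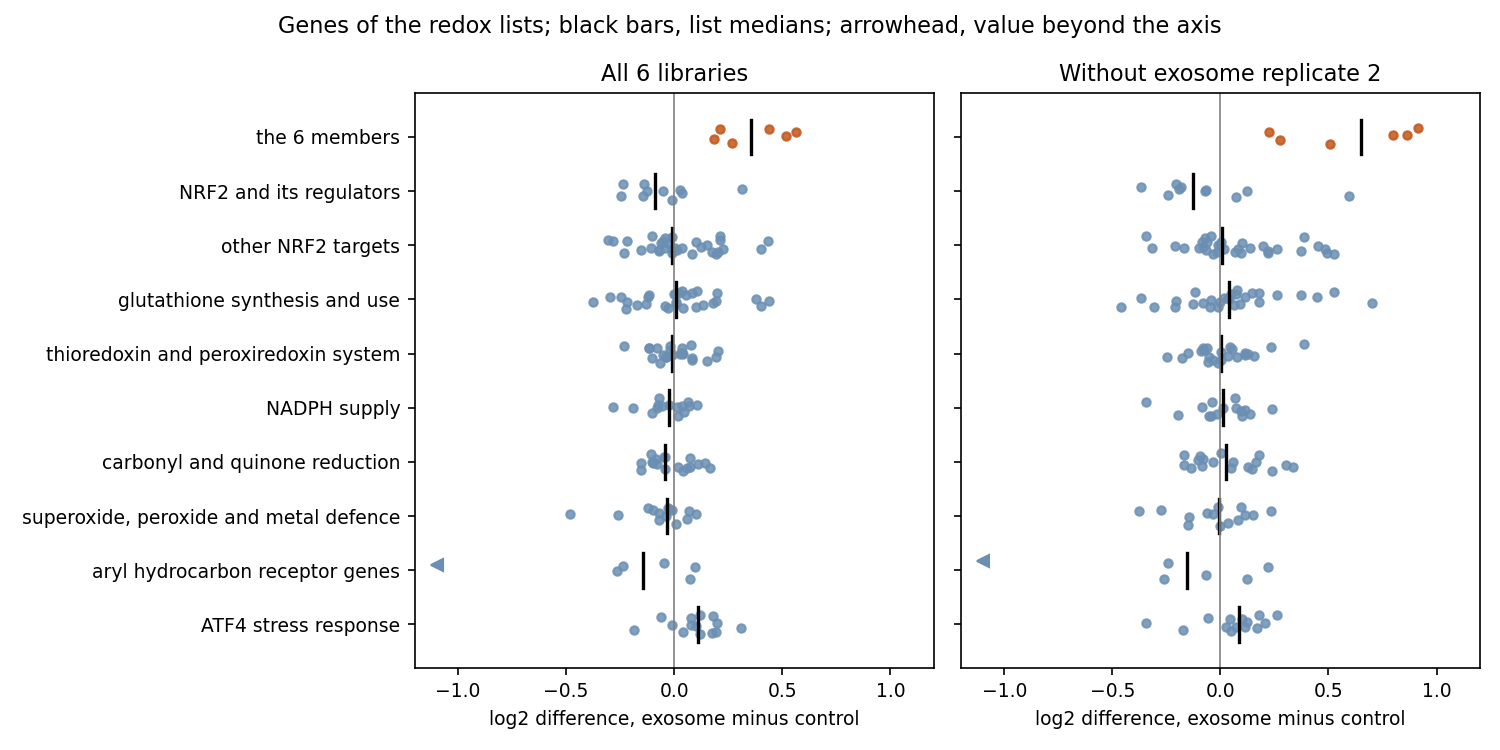
Log2 difference between exosome and control libraries (x axis) for the 6 enzyme genes (orange) and each gene of the 9 lists (blue), with all 6 libraries (left) and without exosome replicate 2 (right). Black bars are medians and the arrowhead is CYP1A1, beyond the axis at -2.41 and -2.10; the list medians lie between -0.14 and 0.11 on the left, and the 6 enzyme genes were chosen for their difference.

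The genes whose log2 levels followed the mean standardised level of the 6 most closely over the 6 libraries were SPR, CPT1A, RMND1, PIM2 and ELAC2, with Pearson's r from 0.994 to 0.996 as a measure of likeness and no test. All points share their libraries. SPR was at 41.0, 40.1 and 35.5 FPKM in the controls and at 55.7, 36.6 and 61.3 FPKM in exosome replicates 1, 2 and 3. CPT1A was at 36.2, 33.9 and 31.6 FPKM in the controls and at 47.4, 33.3 and 48.9 FPKM in the exosome libraries. Both were far above the controls in exosome replicates 1 and 3 and inside the control range in exosome replicate 2. Log2 differences between the groups were 0.36 for SPR and 0.32 for CPT1A, and 0.11 to 0.14 for the other 3. They were 0.58, 0.50 and 0.16 to 0.22 without exosome replicate 2. Each of the 6 genes had an r of 0.931 to 0.984 with the mean that it helped to form.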

How the data were processed

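RNA of 6 libraries was sequenced with a TruSeq Stranded mRNA preparation, per the labels' protocols. The submitters' processing notes name bcl2fastq 1.8.4, TopHat, Cufflinks and the build Sscrofa11.1; the annotation is not given in the sources used here, nor are filters and other versions. Values in the deposited table were read as FPKM computed by the authors, from the tool named and the numbers themselves, since no header states a unit. The table holds 10916 rows, 1 without values, and no zeros, so genes silent in a library cannot be seen. Depth is unknown and the precision is limited by the 3 libraries a group.

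Values were transformed as log2(FPKM + 1), which understates differences of low genes. The 10846 genes whose mean reached 1 FPKM were tested with limma 3.58.1 in R 4.3.3 (intensity trend, two-sided, 4 residual degrees of freedom, Benjamini-Hochberg over all genes tested, threshold 0.05). All adjusted p-values are from limma. The code was tested on simulated data. Python 3.11.15 with matplotlib 3.10.9 drew the figures.

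The 6 genes and the 9 lists were chosen with earlier results of these data known. The lists held 202 symbols besides the 6 genes, of which 139 were found, 13 through the identifier and 2 through a synonym in the reference table. Identifiers of 68.7% of genes were in that table. Named were NFE2L2, KEAP1, BACH1, the 3 further genes of each list with the smallest p, genes passing an adjusted p of 0.05 (up to 10; none with all libraries), and the 5 genes most like the members. Any other gene is said to be chosen after its values were seen, or is named as part of a count. The alternatives changed the pseudocount, the filter, the scaling, the intensity trend, added the replicate number as a block, or left libraries out.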

Additional observations from a re-analysis of the deposited data

How the results depend on the processing

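Over the 15 alternatives all 6 enzyme genes kept a positive log2 difference, and their median, 0.35 with all libraries, ran from 0.15 to 0.65 over the fits that leave out 1 library (lowest without exosome replicate 3, highest without exosome replicate 2); it was 0.66 without replicate 2 of both groups. The number of genes passing over all genes, 0 with all libraries, ran from 0 to 297 when 1 library was left out (297 without exosome replicate 2, 1 without control replicate 3, otherwise 0) and was 58 without replicate 2 of both groups. For the 138 genes tested of the 9 lists it ran from 0 to 12 (12 without exosome replicate 2, otherwise 0), and was 1 without replicate 2 of both groups (CYP1A1). The 12 were 6 higher and 6 lower, where 0.857% and 1.88% of all genes were called. In 90 of 90 comparisons the log2 difference of a member moved by less than the SD between replicates, which exosome replicate 2 makes wide. List medians moved by more in 5 of 135, a count that leaves out the 6 enzyme genes. The median of these 6 genes was itself classed as moved, from 0.35 to 0.65 and 0.66, in the fits that lacked exosome replicate 2. With the replicate number as a block (replicate block) 0 genes passed over all genes, 0 in the lists, and the members' median was 0.353; same-numbered libraries had correlated deviations of 0.161, 0.144 and -0.07, so the numbers were not taken as pairs. The search for antioxidant response elements in promoters was not run. A difference on the scale of the spread in the exosome group cannot be resolved with 3 libraries.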

Other observations

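The deposited rows run in order of the ratio of group means, from lowest to highest, over the first 184 rows, and then start again at the lowest ratio for the other 10732. NQO1, AKR1C1 and TXNRD1 are in the first run, and GCLC, GCLM and PRDX1 in the second. The sources used here do not say how the first run was chosen.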
